A study of Rattus norvegicus with 14 samples.

Results

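Protein phosphatase 2A (PP2A) is a serine/threonine phosphatase built from a scaffold A subunit, a catalytic C subunit and an exchangeable regulatory B subunit. The scaffold holds the other subunits together, the catalytic subunit removes phosphate from proteins, and the B subunit directs the enzyme to its substrates and to a place in the cell. The B55 family of regulatory subunits guides PP2A in the cell cycle and in growth factor signalling, and the B56 family does so in Wnt signalling and at the kinetochore. In the epithelium of the colon, PP2A counteracts kinases of the AKT and MAPK routes, and loss of its subunits has been linked with tumour growth.

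The genes described here are the PP2A subunits Ppp2ca, Ppp2cb, Ppp2r1a, Ppp2r1b, Ppp2r2a, Ppp2r2d, Ppp2r5a, Ppp2r5b, Ppp2r5c and Ppp2r5d, found on the array by their gene names. Of these 10 genes, 9 had at least 1 probe under that name, with 11 probes in all among 30367 probes and 26276 gene names. Ppp2r5d had none and was dropped. Ppp2r2a was chosen by its large fall between the diets in these same samples, so its diet difference is given as a description without a test. The other 8 subunits were compared with the tests below.

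RNA came from colonocytes, the epithelial cells lining the colon, of 14 male Wistar rats, 5 to 6 weeks old on arrival. The rats ate a normal-protein diet (NPD, n = 7), in which protein supplied 14% of the energy, or a high-protein diet (HPD, n = 7), in which it supplied 55%, for 15 days. The protein of both diets was whole milk protein, which replaced starch and sucrose in the HPD. Cells were detached from the colon by perfusion with EDTA, with no sort for cell type, and each array held the RNA of 1 rat. One further rat of each group, which the study removed as an outlier, was not analysed here.

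Each RNA was hybridised to a 1-colour Agilent rat array, on which a probe is an oligonucleotide of 60 bases. A value below is the log2 processed (background-subtracted) signal minus the median of that array, averaged over the spots of a probe. A difference of 1 on this scale is a doubling of the signal. Between 18839 and 20976 probes per array were well above background, and the median processed signal lay between 66.0 and 100.3 on the NPD arrays and between 53.5 and 75.1 on the HPD arrays. The arrays lay on 2 slides, each scanned in its own run, with 4 NPD and 3 HPD arrays on slide 1 and 3 NPD and 4 HPD arrays on slide 2. With diet in the fit, 40.1% of all probes differed between the slides at an adjusted p below 0.1 (limma), so each diet difference is also given with slide as a block. HPD replicate 1 stood apart. Leaving it out raised the probes called between the diets from 17 to 151, whereas leaving out any other array gave between 9 and 28.

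All 12 colonocyte markers were well above background on all 14 arrays, as the label of the samples calls for. So were all 7 goblet cell and all 4 enteroendocrine markers. Of 10 immune markers 6 were above background on every array. The log2 of the summed signal of all 10 ranged from 5.06 to 6.85 in the NPD group and from 4.83 to 5.27 in the HPD group. Of 9 stromal and muscle markers 7 were above background on every array, and the fibroblast gene Dcn was above background on none. The log2 of the summed signal of the goblet markers ranged from 12.2 to 12.9 in the NPD group and from 11.8 to 13.4 in the HPD group, with the highest value in HPD replicate 1. The log2 of the summed signal of 4 red blood cell markers, of which 1 was above background on every array, ranged from 5.19 to 5.94 in the NPD group and from 5.53 to 7.25 in the HPD group, and all 4 had a log2 fold change above 0 (median 0.24). That of 7 stem and cycling markers, of which 5 were above background on every array, ranged from 6.69 to 7.28 in the NPD group and from 6.51 to 7.55 in the HPD group, with the lowest value in HPD replicate 1. The median log2 fold change was -0.35 for the goblet list (5 of 7 below 0), -0.26 for the immune list (7 of 10) and -0.13 for the enteroendocrine list (3 of 4). It was 0.11 for the colonocyte list (4 of 12), 0.04 for the stem and cycling list (3 of 7) and -0.08 for the stromal and muscle list (5 of 9). Of all probes 35.8% were below 0. No gene of the 7 marker lists was called between the diets (limma, adjusted p below 0.1), beside 0.0560% of all probes. Fewer cells of a type and less RNA per cell cannot be told apart in such samples, and the part of these markers in the values below was not tested.

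All 11 PP2A probes were well above background on all 14 arrays, so none of the differences rests on a bound. The oligonucleotides on which the results turn are shown with their place in the rat genome build rn4, as the array files give it. Those of Ppp2r2a and Ppp2r2d, the B55 genes among the members, are set beside each other because they resemble each other. The signal of Ppp2r2a varied widely and that of Ppp2r2d did not. Capitals mark the bases that differ between them in the 55 bases over which they align.
Ppp2r2a (chr15:46547148-46547207, minus strand): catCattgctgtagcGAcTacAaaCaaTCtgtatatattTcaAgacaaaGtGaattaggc
Ppp2r2d (chr1:198674454-198674513, plus strand): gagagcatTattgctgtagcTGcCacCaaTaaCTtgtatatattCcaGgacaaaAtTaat
They matched at 43 of the 55 aligned bases and differed at 12. Any other pair of these probes from different subunit genes matched at no more than 28 of 57 aligned bases.

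The probe of Ppp2cb is shown because this was the member other than Ppp2r2a with the smallest p. Its 60 bases are placed over 1814 bases of the genome, so that its match to the genome is interrupted.
Ppp2cb (chr16:62331170-62332983, minus strand): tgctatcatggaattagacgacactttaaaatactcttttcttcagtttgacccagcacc
The probes of Ppp2r5c are shown because their log2 fold changes differed in sign, although that of the brighter one was smaller than its SE. The dimmer one is placed over 5045 bases and its first reading frame closes with a stop codon at codon 20 of 20, set in capitals, while the brighter one lies in a single stretch.
Ppp2r5c, dimmer probe (chr6:135264834-135269878, plus strand): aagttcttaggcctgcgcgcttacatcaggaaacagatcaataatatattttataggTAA
Ppp2r5c, brighter probe (chr6:135285228-135285287, plus strand): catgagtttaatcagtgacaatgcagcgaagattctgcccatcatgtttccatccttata
The RefSeq gene table (assembly GRCr8) lists a pseudogene for 6 of the 10 subunits (Ppp2ca, Ppp2cb, Ppp2r1a, Ppp2r1b, Ppp2r2d and Ppp2r5c) and a near copy, Ppp2cal1 or Ppp2r5al1, for 2. It lists neither for Ppp2r2a. Binding of their transcripts to these probes was not tested.

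Ppp2r2a, which encodes the B55 alpha regulatory subunit, was lower in colonocytes of rats fed the HPD than in those fed the NPD. On slide 1 the NPD rats had log2 signals of 3.49, 3.35, 2.62 and 3.24, and the HPD rats had 3.48, 1.57 and 1.58. On slide 2 the NPD rats had 1.76, 1.69 and 2.24, and the HPD rats had 1.14, 1.61, -0.05 and 0.19. On both slides all HPD rats but HPD replicate 1, whose value of 3.48 was next to the highest NPD value, lay below all NPD rats of the same slide.

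The NPD rats had a mean log2 signal of Ppp2r2a of 2.63 ± 0.75 (SD, n = 7), and the HPD rats had one of 1.36 ± 1.16 (SD, n = 7). This gave a log2 fold change (HPD minus NPD) of -1.27 ± 0.47 (SE), which is a signal 58.5% lower, and it ranked 19 among all 30367 probes from the lowest upwards. These are the values by which the gene was chosen. Within slides the difference was -0.97 on slide 1 and -1.17 on slide 2, and with slide as a block it was -1.07 ± 0.33 (SE). Without HPD replicate 1 it was -1.62 ± 0.38 (SE). Its direction was the same in all 33 alternative settings, with log2 fold changes from -1.62 to -0.90.

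**Figure D1:**
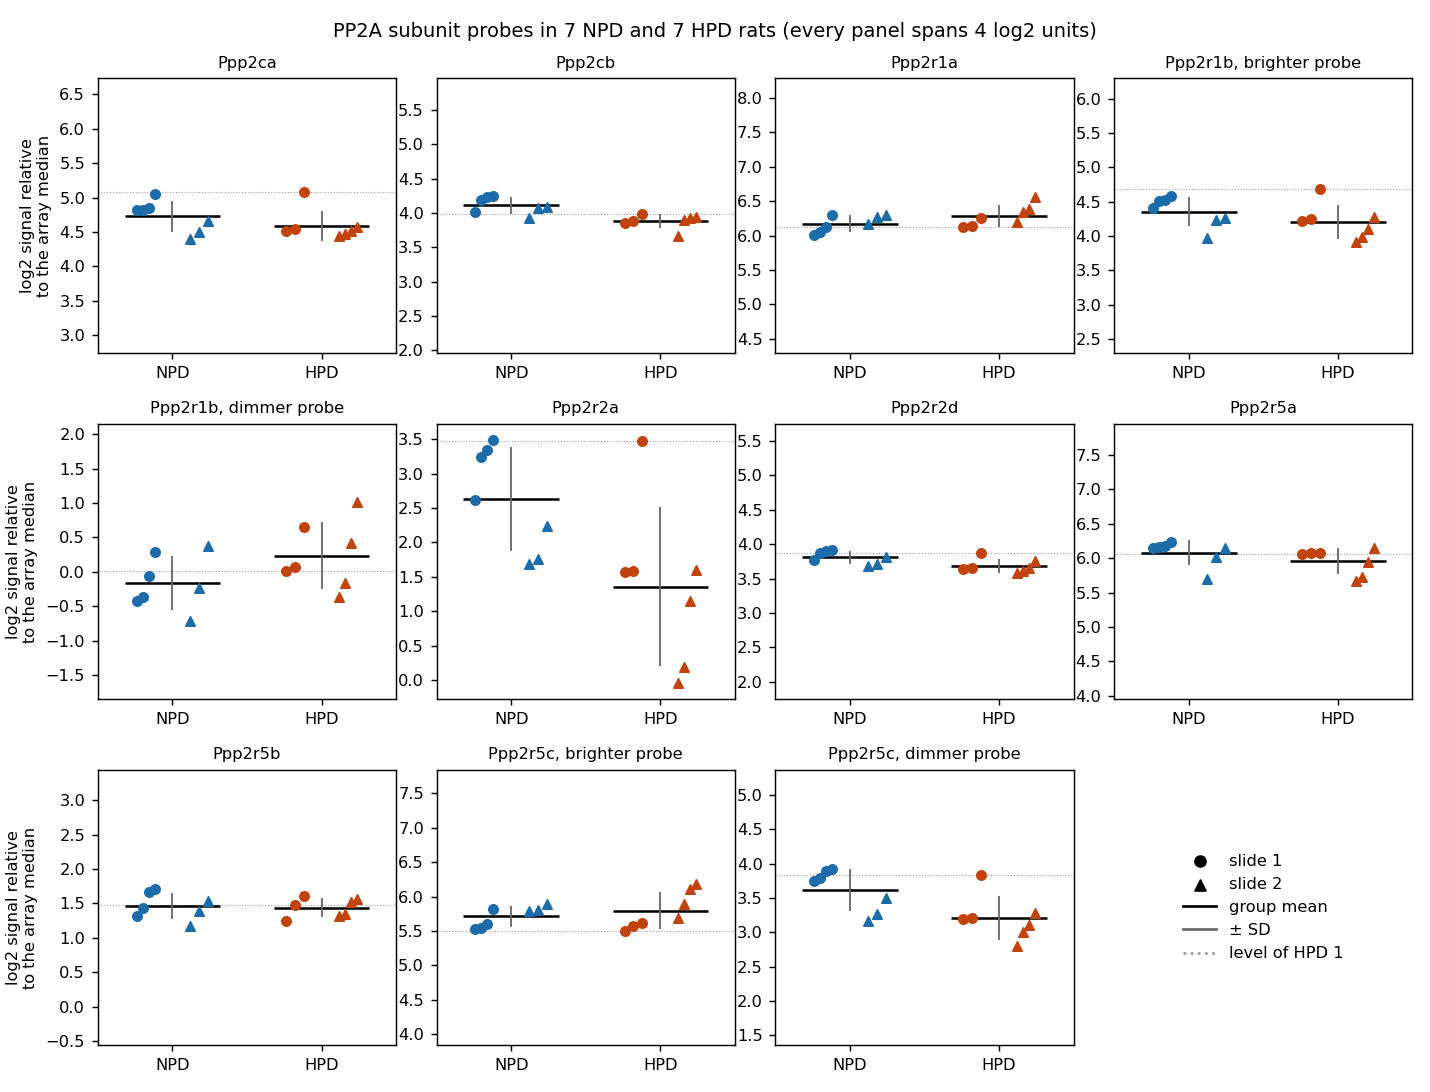
Log2 signal relative to the array median (vertical axis) of the 11 PP2A subunit probes in NPD and HPD rats (horizontal axis). Each symbol is 1 rat (circles slide 1, triangles slide 2), the black bar is the group mean, the grey line the SD and the dotted line the level of HPD replicate 1. Ppp2r2a, from -0.05 to 3.49, is spread more widely than any other of these probes.

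Ppp2r2a also varied more between rats of the same diet than its relatives did. Its SD within diets was 0.98 on the log2 scale, above that of 95.2% of all probes, and 0.70 with the mean of each diet on each slide removed. The brightest probes of the other 8 subunits had SDs from 0.10 to 0.23, with between 0.264% and 17.7% of all probes below them. The SD between both spots of the Ppp2r2a probe within an array had a median of 0.0556 and a highest value of 0.24, which is technical error only.

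The brightest probes of the remaining 8 subunits moved little, and the counts here use these probes. None was called between the diets (limma over all probes, adjusted p below 0.1), where 0.0560% of all probes were called. With slide as a block again none of the 8 was called, beside 0.0889% of all probes, and none with HPD replicate 1 also left out, an alternative chosen after seeing the data, beside 5.40% of all probes. At an unadjusted limma p below 0.05 there was 1, Ppp2cb, which was lower, beside 5.55% of all probes that were lower at this level. With slide as a block it was again 1, Ppp2cb, beside 7.32%. The dimmer Ppp2r5c probe, outside these counts, was also lower, at an unadjusted limma p of 0.029, and 0.0128 with slide as a block. The dimmer Ppp2r1b probe was higher, at 0.40 (limma, unadjusted p = 0.0995). By the exact two-sided permutation test over all splits of the rats 2 of the 8 had a p below 0.05, Ppp2cb and Ppp2r2d, both lower, beside 5.85% of all probes that were lower at this level. When rats were regrouped within slides these were again the 2, beside 7.72%. The dimmer Ppp2r5c probe was lower here too (exact two-sided permutation p = 0.0344, and 0.0131 within slides). None of the 8 had all HPD rats below all NPD rats, beside 0.145% of all probes. With Ppp2r2a left aside, 6 of the 8 had a log2 fold change below 0 and 2 above, beside 35.8% of all probes below 0. The median log2 fold change of the 8 was -0.13. That of all probes was 0.11, and that of the probes well above background on every array of a group was 0.05. Set against the median of all probes in the same fit, 7 of the 8 were below it, and between 5 and 8 in the alternative settings. With only the probes well above background in the fit, 6 of the 8 were below its median.

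**Figure D2:**
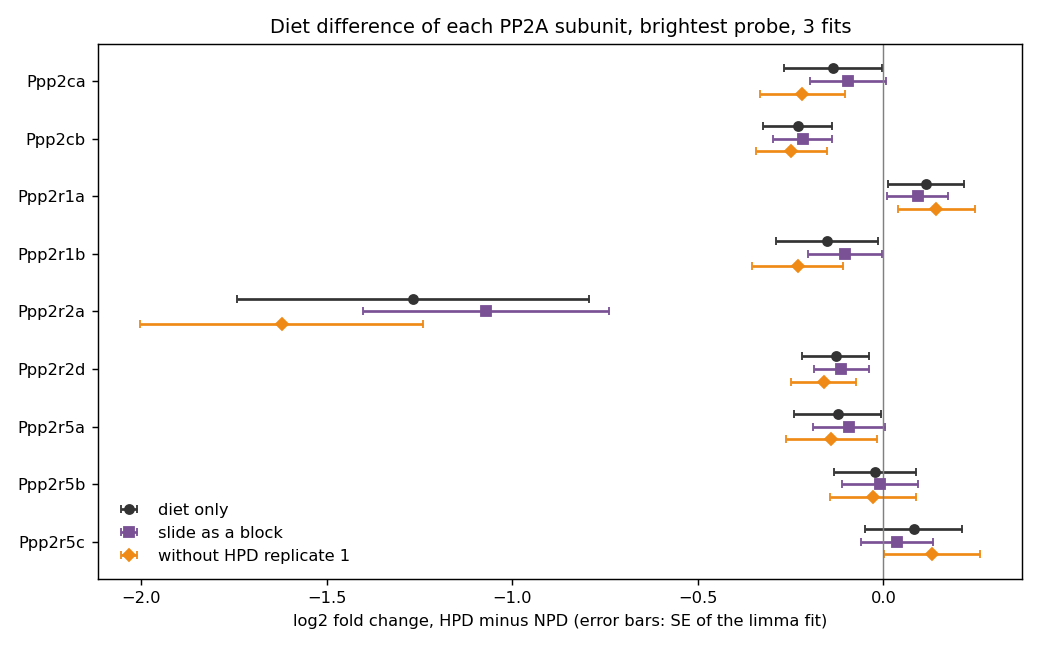
Log2 fold change (HPD minus NPD, horizontal axis) of the brightest probe of each PP2A subunit, with its SE, from the fit with diet only, with slide as a block and without HPD replicate 1. Ppp2r2a lies at -1.27, -1.07 and -1.62, while the other 8 lie between -0.25 and 0.14 in all 3 fits.

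Of the catalytic subunits, the beta form was lower in the HPD group in every rat when set against the NPD mean. Ppp2cb had log2 signals from 3.93 to 4.25 (median 4.09) in the NPD group and from 3.66 to 3.98 (median 3.89) in the HPD group. The groups overlapped only through the lowest NPD rat, and 6 of 7 NPD rats lay above all HPD rats. The log2 fold change was -0.23 ± 0.09 (SE), a signal 14.8% lower, with a 95% confidence interval from -0.43 to -0.03. The exact two-sided permutation p was 0.00233 over all splits and 0.00735 within slides, but over all probes the adjusted p of limma was 0.417, and 0.245 with slide as a block. The difference was -0.26 on slide 1 and -0.17 on slide 2. It was called in 3 of the 33 alternative settings, namely normexp background correction without and with slide as a block and the log2 table of the authors blocked by slide (adjusted p of limma 0.0922, 0.0335 and 0.056). In these fits 5.51%, 10.4% and 6.50% of all probes or gene names were called lower.

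Ppp2ca, the alpha form and usually the main catalytic subunit, did not differ beyond the spread between rats. Its log2 signals ranged from 4.39 to 5.05 (median 4.81) in the NPD group and from 4.44 to 5.08 (median 4.52) in the HPD group. The highest value of all 14 rats was that of HPD replicate 1, and the other HPD rats lay at 4.57 or below. The log2 fold change was -0.14 ± 0.13 (SE), with an interval from -0.42 to 0.14 (exact two-sided permutation p = 0.272). Without HPD replicate 1 it was -0.22 ± 0.12 (SE, adjusted p of limma 0.302), and without NPD replicate 4 it was -0.083.

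The scaffold subunits gave no call in either direction. Ppp2r1a, the alpha scaffold, had log2 signals from 6.01 to 6.30 (median 6.17) in the NPD group and from 6.12 to 6.57 (median 6.26) in the HPD group. Its log2 fold change was 0.12 ± 0.10 (SE), with an interval from -0.10 to 0.33 (exact two-sided permutation p = 0.15). It was -0.03 with normexp background correction and also in the deposited table, and 0.07 without HPD replicate 7. In the fit with diet only, Ppp2r1a was the one subunit above the median of all probes.

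Ppp2r1b, the beta scaffold, had a pair of probes that differed in sign. Its brighter probe, printed in 10 spots, ranged from 3.97 to 4.59 (median 4.41) in the NPD group and from 3.91 to 4.68 (median 4.22) in the HPD group, with a log2 fold change of -0.15 ± 0.14 (SE, exact two-sided permutation p = 0.247). Without HPD replicate 1 it was -0.23. Its dimmer probe ranged from -0.72 to 0.38 in the NPD group and from -0.37 to 1.01 in the HPD group, with a log2 fold change of 0.40 ± 0.23 (SE, exact two-sided permutation p = 0.122). Neither was called. The log2 difference between the probes within an array (dimmer minus brighter) rose by 0.55 from NPD to HPD (exact two-sided permutation p = 0.0385, and 0.0539 within slides), a test chosen after the values were seen.

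The other B55 subunit among the members, Ppp2r2d (B55 delta, which restrains entry into mitosis), showed none of the large spread of Ppp2r2a. Its log2 signals ranged from 3.68 to 3.92 (median 3.82) in the NPD group and from 3.57 to 3.87 (median 3.65) in the HPD group. Of 7 HPD rats 5 lay below all NPD rats, and HPD replicate 1 again had the highest HPD value. The log2 fold change was -0.13 ± 0.09 (SE), a signal 8.49% lower, with an interval from -0.32 to 0.06. The exact two-sided permutation p was 0.035, and 0.0367 within slides, while the adjusted p of limma over all probes was 0.515. It was called only with normexp background correction, without (-0.24, adjusted p of limma 0.0922) and with slide as a block (-0.23, adjusted p of limma 0.0567).

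Of the B56 subunits, Ppp2r5a and Ppp2r5b did not differ beyond the spread between rats. Ppp2r5a (B56 alpha) ranged from 5.69 to 6.23 (median 6.14) in the NPD group and from 5.67 to 6.15 (median 6.06) in the HPD group, with a log2 fold change of -0.12 ± 0.12 (SE) and an interval from -0.37 to 0.13 (exact two-sided permutation p = 0.22). Without HPD replicate 7 it was -0.075, and without NPD replicate 6 it was -0.19. Ppp2r5b (B56 beta) ranged from 1.17 to 1.72 (median 1.44) in the NPD group and from 1.25 to 1.60 (median 1.47) in the HPD group, with a log2 fold change of -0.02 ± 0.11 (SE) and an interval from -0.26 to 0.21 (exact two-sided permutation p = 0.799). The groups overlapped for both genes, with 1 HPD rat below all NPD rats for Ppp2r5a and none for Ppp2r5b.

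Ppp2r5c (B56 gamma) gave different answers by probe, and the brighter of its probes was printed in only 1 spot. Its brighter probe ranged from 5.53 to 5.89 (median 5.80) in the NPD group and from 5.49 to 6.19 (median 5.69) in the HPD group, with a log2 fold change of 0.08 ± 0.13 (SE, exact two-sided permutation p = 0.492). It was 0.13 without HPD replicate 1, 0.05 without NPD replicate 1 or 2, 0.03 without HPD replicate 6 and 0.02 without HPD replicate 7. Its dimmer probe ranged from 3.17 to 3.92 (median 3.75) in the NPD group and from 2.80 to 3.83 (median 3.19) in the HPD group. There 6 of 7 HPD rats lay below the NPD mean, and HPD replicate 1 was the exception. The log2 fold change of the dimmer probe was -0.41 ± 0.17 (SE), a signal 24.6% lower, with an exact two-sided permutation p of 0.0344 and of 0.0131 within slides. The adjusted p of limma over all probes was 0.418, and 0.229 with slide as a block. The log2 difference between the probes within an array (dimmer minus brighter) fell by 0.49 from NPD to HPD (exact two-sided permutation p = 0.0781, and 0.0204 within slides), again a test chosen after the values were seen. The deposited table, which holds 1 value per gene name, gave -0.31 when blocked by slide (adjusted p of limma 0.072).

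Although no probe carries the name Ppp2r5d (B56 delta), 1 probe named by an Ensembl transcript, at chr9:10054055-10054114 (rn4, minus strand), shares an accession with Ppp2r5d in the RefSeq table. It is outside the rule and in none of the counts. Its log2 signals ranged from 6.63 to 7.08 (median 6.82) in the NPD group and from 6.81 to 7.23 (median 7.03) among HPD rats. The log2 fold change was 0.19 ± 0.11 (SE), with an exact two-sided permutation p of 0.0559 and of 0.0122 within slides, and an adjusted p of limma of 0.488.

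**Figure D3:**
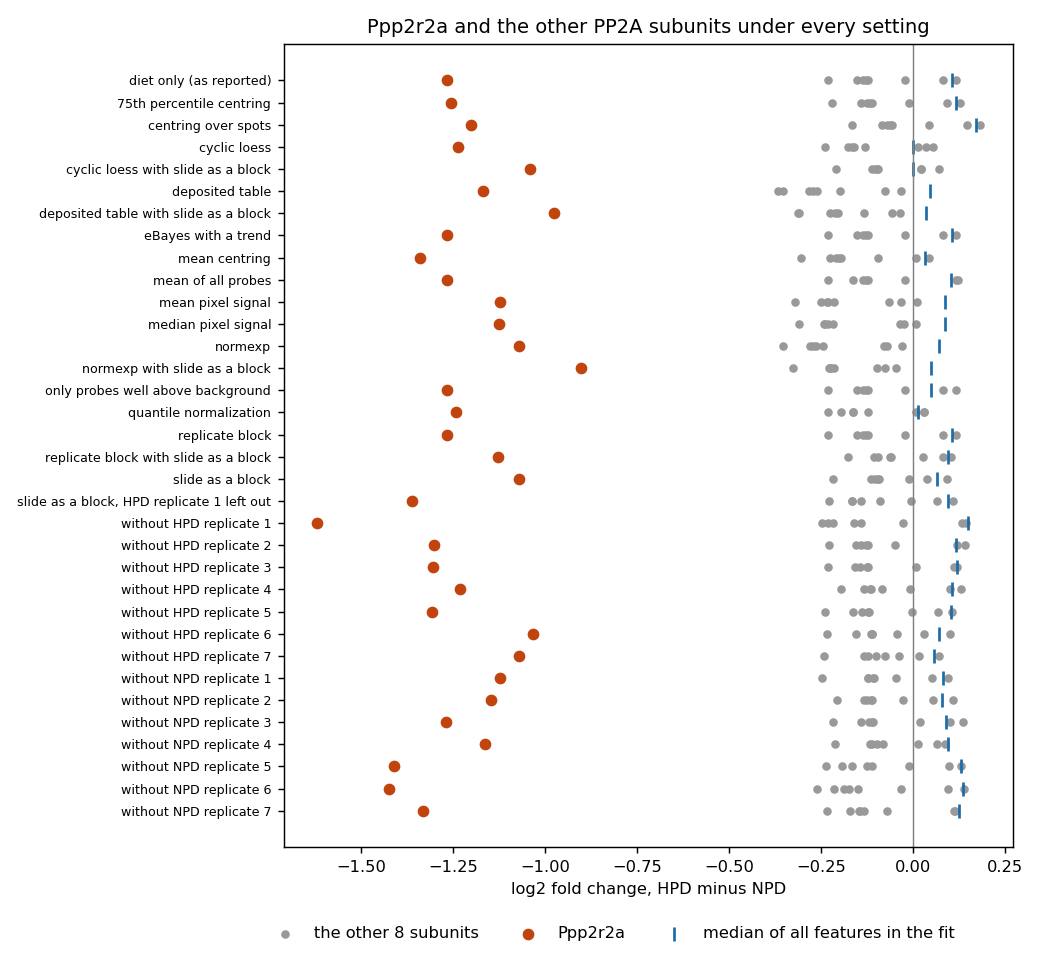
Log2 fold change (HPD minus NPD, horizontal axis) of Ppp2r2a (red) and of the other 8 PP2A subunits (grey) in the fit as reported and in each of 33 alternative settings (vertical axis), with the median of all features in that fit as a blue bar. Ppp2r2a was the lowest of the 9 in every setting shown, from -1.62 to -0.90.

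Ppp2r2a had a lower log2 fold change than each of the other 8 subunits with diet only and in all 33 alternative settings. The smallest gap to the next subunit was 0.58, with normexp background correction and slide as a block. Because Ppp2r2a was chosen by its fall, this order carries no test.

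Some subunits also differed between the slides. The slides held different rats and were scanned in separate runs, so slide, rats and scan cannot be told apart. With diet in the fit, 4 of the 9 subunits differed between the slides (limma, adjusted p below 0.1), beside 40.1% of all probes. Lower on slide 2 were Ppp2r2a by -1.38 ± 0.33 (SE, adjusted p of limma 0.00715), Ppp2r1b by -0.33 ± 0.10 (SE, adjusted p of limma 0.0204) and Ppp2ca by -0.29 ± 0.10 (SE, adjusted p of limma 0.0423), while 12.1% of all probes were called lower on slide 2. Ppp2r5c was higher on slide 2 by 0.31 ± 0.10 (SE, adjusted p of limma 0.0263) with its brighter probe and lower by -0.45 ± 0.12 (SE, adjusted p of limma 0.0125) with its dimmer one. The slide difference of Ppp2r2a was thus as large as its diet difference, with the signal 2.60-fold higher on slide 1. Ppp2cb, Ppp2r2d and Ppp2r5b had slide differences between -0.10 and -0.09, none of them called.

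**Figure D4:**
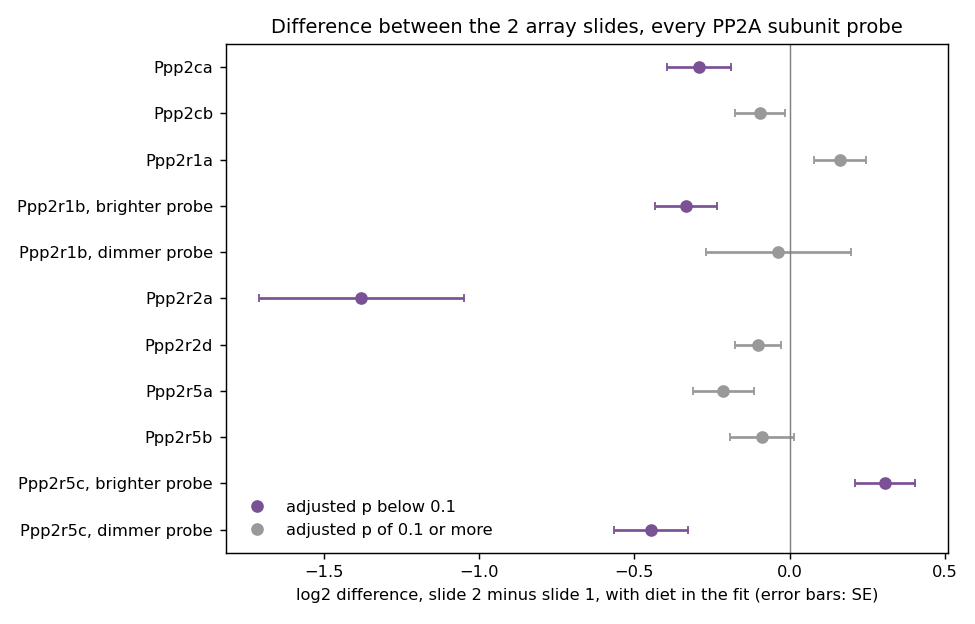
Log2 difference between the slides (slide 2 minus slide 1, horizontal axis) of each PP2A subunit probe, with its SE, from the limma fit with diet and slide. Purple marks an adjusted p below 0.1, and Ppp2r2a lies farthest from 0, at -1.38.

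HPD replicate 1 was at an end of the HPD group for 8 of the 11 PP2A probes, beside 62.0% of the probes well above background on all arrays and 50.7% of all probes. It was the highest HPD rat for 6 (Ppp2ca, Ppp2cb, Ppp2r1b brighter probe, Ppp2r2a, Ppp2r2d and Ppp2r5c dimmer probe) and the lowest for 2 (Ppp2r1a and Ppp2r5c brighter probe), beside 17.6% and 33.1% of all probes.

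The level of Ppp2r2a over the 14 arrays ran with that of some of its relatives, given here as a description without a test because all genes share the arrays. Pearson's r with Ppp2r2a was 0.92 (Spearman's rho 0.86) for Ppp2r1b, 0.83 (rho 0.90) for Ppp2r2d and 0.82 (rho 0.72) for Ppp2ca. It was -0.81 (rho -0.72) for Ppp2r1a and -0.79 (rho -0.64) for the brighter Ppp2r5c probe, against 0.90 (rho 0.89) for the dimmer one. After the means of each diet on each slide were removed, r was 0.89 for Ppp2r1b, 0.63 for Ppp2r2d, 0.67 for Ppp2ca and 0.06 for Ppp2cb. Without the 2 arrays farthest from the median of Ppp2r2a (HPD replicate 6 and NPD replicate 1), r was 0.92 for Ppp2r1b, 0.75 for Ppp2r2d and 0.82 for Ppp2ca.

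Many genes outside the family tracked Ppp2r2a more closely. Of 15284 genes above background on all arrays, the 5 most like it were Brox, Ankrd22, Jak2 (a tyrosine kinase of cytokine receptors), Nfx1 and Cpd (carboxypeptidase D), with Pearson's r from 0.987 to 0.992 over 14 arrays. With the diet means removed r was still between 0.980 and 0.988, and with the means of each diet on each slide removed it was between 0.963 and 0.983. Without HPD replicate 6 and NPD replicate 1 it was between 0.981 and 0.992. Because they were picked by their likeness to Ppp2r2a, which was itself chosen by its fall, their own direction adds nothing to it. All 5 had negative differences between the diets, from -0.52 (Nfx1) to -1.04 (Cpd) on the log2 scale, and between the slides (slide 2 minus slide 1), from -0.51 (Nfx1) to -0.99 (Cpd). Among the subunits Ppp2r1b ranked highest, at 395 of the 15284 genes.

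PP2A works with proteins that assemble it, inhibit it or are dephosphorylated by it, and 57 such genes and related phosphatases were taken in 6 lists. Of these, 52 were on the array, and none was called between the diets (limma, adjusted p below 0.1), beside 0.0560% of all probes. At an unadjusted p below 0.05, 8 of the 52 were lower and 3 higher, beside 5.55% and 5.86% of all probes. Of the 52 genes 28 had a log2 fold change below 0 and 24 above, beside 35.8% of all probes below 0, a share that includes probes not well above background. The median of the 52 genes was -0.03, against 0.11 for all probes and 0.05 for the probes well above background. Between the slides 32 of the 52 were called, beside 40.1% of all probes. The genes named from each list are the 2 with the smallest p in these same samples among those well above background. For this reason only the p adjusted over all probes is given for them. Counts of HPD rats below the NPD mean for these genes follow from that choice and add nothing to it.

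The 8 remaining PP2A subunits on the array (B55, PR72 and striatin families and B56 epsilon) had a median log2 fold change of 0.19, with 7 above 0 and 1 below, and none had an unadjusted p below 0.05. The smallest p among those above background belonged to Strn3, a striatin that serves as a B subunit, at 0.36 ± 0.17 (SE, adjusted p of limma 0.441), and to Ppp2r3c at 0.29 ± 0.18 (SE, adjusted p of limma 0.502). Of the 9 striatin complex partners 4 were below 0 and 5 above (median 0.09). Among these, Sike1, a component of the complex, had -0.86 ± 0.32 (SE, adjusted p of limma 0.417) and Fgfr1op2 had 0.27 ± 0.13 (SE, adjusted p of limma 0.441). The value of Fgfr1op2 was negative in the deposited table and as the mean of all its probes.

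The inhibitors of PP2A, with the Greatwall kinase route that blocks PP2A-B55 in mitosis, had the lowest median of the 6 lists, -0.29 over 7 genes, of which 5 were below 0. The inhibitor Anp32a had -0.64 ± 0.30 (SE, adjusted p of limma 0.437), and Bod1, an inhibitor of PP2A-B56 at the kinetochore, had -0.47 ± 0.18 (SE, adjusted p of limma 0.417). Each was below the NPD mean in 6 of 7 HPD rats. The 5 assembly and modifying proteins had a median of -0.10, with 3 below 0. Igbp1, which holds the free catalytic subunit, had -0.27 ± 0.12 (SE, adjusted p of limma 0.43), and the methyltransferase Lcmt1, which methylates the catalytic subunit, had -0.26 ± 0.12 (SE, adjusted p of limma 0.441).

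Of 15 substrates of PP2A 10 were below 0 and 5 above (median -0.11). The kinase gene Akt1 was below the NPD mean in all 7 HPD rats, with a log2 fold change of -0.30 ± 0.10 (SE, adjusted p of limma 0.417), and Akt2 was so too, with -0.37 ± 0.15 (SE, adjusted p of limma 0.418). The 8 catalytic subunits of other serine/threonine phosphatases had a median of -0.09, with 5 below 0. Ppp1cb, of protein phosphatase 1, had 0.31 ± 0.13 (SE, adjusted p of limma 0.421) and Ppp3ca, of calcineurin, had -0.39 ± 0.19 (SE, adjusted p of limma 0.441). The value of Ppp1cb was -0.01 in the deposited table. With normexp background correction and slide as a block Akt2 was at -0.024, Sike1 at -0.29, Strn3 at 0.17 and Ppp2r3c at 0.078, each closer to 0 than the value above. In the same fit Akt1 was at -0.40 (adjusted p of limma 0.0273), where 10.4% of all probes were called lower. Of the named partner genes, Bod1 was called in 4 of the 33 alternative settings. Akt1, Anp32a, Igbp1, Lcmt1 and Sike1 were called in 3 each and Ppp3ca in 1. The other named partner genes were called in none.

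**Figure D5:**
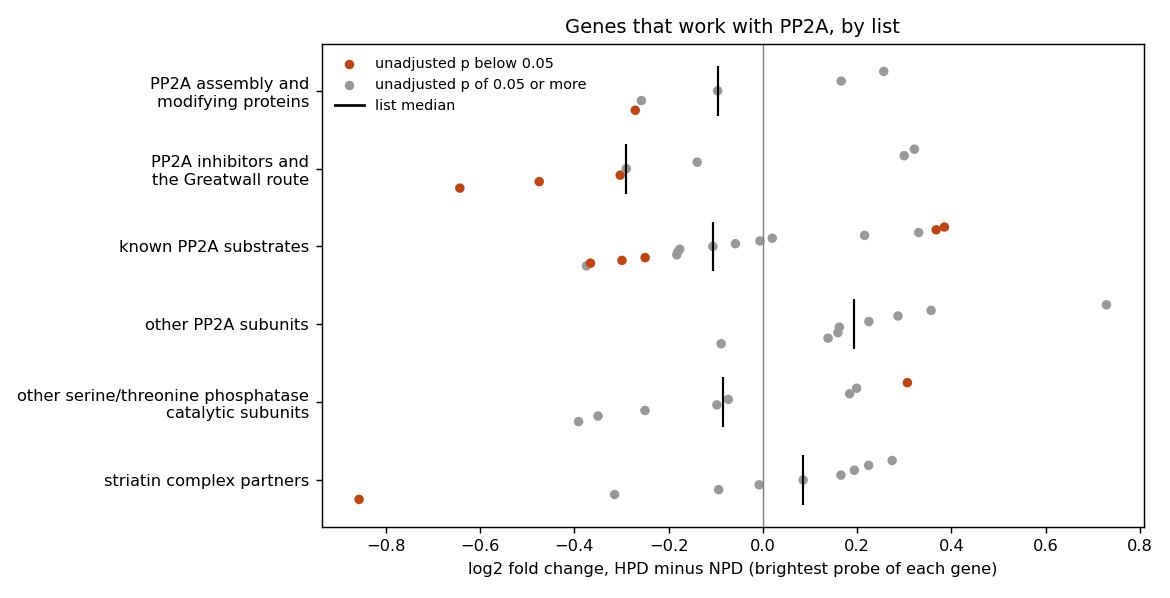
Log2 fold change (HPD minus NPD, horizontal axis) of 52 genes that work with PP2A or are related phosphatases, by list (vertical axis), with the list median as a black bar and genes at an unadjusted limma p below 0.05 in red. The values ran from -0.86 to 0.73, and no gene was called after adjustment over all probes.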

How the data were processed

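Colonocyte RNA of 14 rats was measured on 1-colour Agilent arrays (30367 non-control probes in 58717 spots). The authors deposited, per the file headers, the intensity of each spot from Agilent Feature Extraction 10.7.3.1, and a table of log2 values per gene name (26414 names), centred by array. Methods of the study name limma with diet as the fixed effect, and the signal column is not named there. Here the log2 of the processed intensity, without control and outlier-marked spots, was averaged over the spots of a probe and centred on the median of the probes of each array. The brightest probe stood for a gene. The main test was a linear model with diet alone in limma 3.58.1 (R version 4.3.3), with moderated variances and Benjamini-Hochberg adjustment over all probes at an adjusted p below 0.1. Exact two-sided permutation tests used all 3432 splits of the rats, or 1225 within slides. Their smallest possible p over all splits is 0.00058. They were computed for 8 subunits, and with all probes for 10 probes. They were also computed for the probe that shares an accession with Ppp2r5d and for the probe differences of Ppp2r1b and Ppp2r5c. Those of the named partner genes were computed but are not given. None is adjusted for the number of tests, so a call rests on the adjusted p of limma. Intervals are 95% intervals of the limma fit. The scripts were tested on simulated data. A slide (from the header of each file) is also a scan run. The number of arrays limits the precision.

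The members, the gene lists and the tests were chosen with earlier results of these data known. Named partner genes were the 2 of each list with the smallest unadjusted p among those well above background on every array of a group, and the 5 genes most like Ppp2r2a were taken by Pearson's r. Settings tried were the pixel signal, centring, quantile, cyclic loess and normexp (offset 50) normalization, the background filter, slide and replicate blocks, the deposited table, the choice of probe, a threshold of 0.05 and each array left out. Centring over spots, and slide as a block without HPD replicate 1, were added after seeing the data. No column of the deposited table belonged to other samples.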

Additional observations from a re-analysis of the deposited data

Results flagged for a closer look

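In 3 of the 22 groups of 7 values (11 probes in each diet), 1 rat lay farther from the others than Dixon's test at the 95% level allows, and chance alone flags about 1 in 20 groups. Ppp2ca in HPD replicate 1 was the highest of its group at 5.08, with the next rat at 4.57, a gap of 0.791 of the range of the group. Without that rat the log2 fold change was -0.22 (adjusted p of limma 0.302). Ppp2cb in HPD replicate 4 was the lowest of its group at 3.66, with the next at 3.86, a gap of 0.614 of the range, and without it the log2 fold change was -0.20 (adjusted p of limma 0.55). Ppp2r5a in NPD replicate 6 was the lowest of its group at 5.69, with the next at 6.02, a gap of 0.607 of the range, and without it the log2 fold change was -0.19 (adjusted p of limma 0.354). In the plot of the values by rat the same HPD replicate 1 is also set apart for Ppp2r2a, at a gap of 0.531, and for the dimmer Ppp2r5c probe, at 0.536, both under the critical value.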

How the results depend on the processing

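Of the 8 subunits with a test, none was called with diet only, and 2 were called with normexp (Ppp2cb and Ppp2r2d), 2 with normexp and slide as a block (the same 2) and 2 in the deposited table blocked by slide (Ppp2cb and Ppp2r5c). Of the 52 partner genes, 10 were called with normexp (14.5% of all probes were), 19 with normexp and slide as a block (27.1%), 11 in the deposited table blocked by slide (10.5% of its gene names) and 5 with slide as a block without HPD replicate 1 (5.40%), the last chosen after seeing the data. Leaving out each array in turn called 0 subunits and 0 partner genes, beside 0.030% to 0.497% of all probes. In these fits 6 to 7 subunits were lower in the HPD group and 3 to 5 differed between the slides. Mean centring and quantile normalization each gave 7 subunits changed between the slides in place of 4. Over all probes 17 were called with diet only, 27 with slide as a block, 4408 with normexp and 8244 with normexp and slide as a block. The cause was not tested.

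The sign turned for these values. Ppp2r1a was -0.034 in the deposited table and -0.035 there with slide as a block, -0.029 with normexp and -0.045 with normexp and slide as a block. Ppp2r1b was 0.12 as the mean of all probes and 0.40 by the probe with the smallest p. Ppp2r5b was 0.043 with centring over spots (chosen after seeing the data), 0.012 with cyclic loess, 0.022 with cyclic loess and slide as a block, 0.030 with quantile normalization and 0.027 with a replicate block and slide as a block, and from -0.072 to 0.019 with each array left out. Ppp2r5c was -0.37 in the deposited table and -0.31 there with slide as a block, -0.16 as the mean of all probes, -0.032 with the mean and -0.024 with the median pixel signal, -0.070 with normexp, -0.10 with normexp and slide as a block and -0.41 by the probe with the smallest p. Fgfr1op2 was -0.094 in the deposited table, -0.090 there with slide as a block and -0.13 as the mean of all probes, and Ppp1cb was -0.013 in the deposited table. Ppp2ca, Ppp2cb, Ppp2r2d and Ppp2r5a were lower in the HPD group in all 33 alternative settings.

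Samples of the 2 diets share replicate numbers, but the correlations of same-numbered arrays ran from -0.16 to 0.67, so the numbers were not taken to pair the rats. With the replicate block 0 subunits were called, and the probes called fell from 17 to 8.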
